A study of Mus musculus with 12 samples.

Results

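The 5 genes followed here belong to the pericellular and interstitial matrix of mouse left ventricles: Fn1 (fibronectin), Comp (cartilage oligomeric matrix protein), Prelp (proline and arginine rich end leucine rich repeat protein), Prg4 (lubricin) and Sdc1 (syndecan-1). The array files name no genes, so a probe received a name only where its fold and p value, computed from the deposited log2 values, matched an entry of the study's lists of changed transcripts, and these 5 genes, with 1 probe each, are 5 of the 863 gene symbols named in this way. They were therefore chosen by measured values. Comp was named by MI miR-150 fl/fl against sham miR-150 fl/fl and by MI miR-150 cKO against MI miR-150 fl/fl, Fn1 and Prelp by the first of these, Prg4 by the second, and Sdc1 by sham miR-150 cKO against sham miR-150 fl/fl and by MI miR-150 fl/fl against sham miR-150 fl/fl. Those differences are given as a description with no test. The smallest of them in the authors' values was a fold of 1.66 for Prelp, next to the study's limit of a 1.5-fold difference, and a probe outside the limits in all of the study's comparisons could not be named.

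RNA came from the whole left ventricle of 12 C57BL/6J mice, 3 in each of 4 groups, with 1 mouse per 1-colour array. miR-150 fl/fl mice carry floxed alleles of the microRNA gene Mir150 and no Cre, and miR-150 cKO mice carry the same alleles with αMHC-Cre, a transgene whose promoter drives Cre in cardiomyocytes, so other heart cells keep the gene. No group carried the transgene without floxed alleles. MI was a permanent ligation of the left anterior descending artery, sham mice were the surgical controls, and tissue was taken 4 weeks after surgery. Each group held 1 male and 2 females. Ages were 13 to 14 weeks in miR-150 fl/fl and 14 to 15 weeks in miR-150 cKO mice, so that age and genotype nearly coincide. The level of miR-150 itself is not analysed here.

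Fibronectin is laid down early at sites of injury as fibrils that bind integrins and on which collagen is assembled. COMP, a thrombospondin family protein best known from cartilage and tendon, and PRELP, a small leucine-rich repeat proteoglycan, bind collagen fibrils, and PRELP also binds heparan sulfate of basement membranes. Lubricin is a mucin-like glycoprotein that lubricates joint surfaces, and syndecan-1 is a cell surface proteoglycan whose heparan sulfate chains bind matrix proteins and growth factors. In the injured heart, fibroblasts and myofibroblasts make most of the scar matrix. In RNA from whole tissue, fewer cells of a type and less RNA per cell cannot be told apart.

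Values below are log2 signals relative to the 75th percentile of their own array, so that a difference of 1 is a 2-fold difference, and levels of different genes are not compared because each has its own probe. A transcript is past the limits where its fold difference was at least 1.5 with an unadjusted p under 0.05 in limma, and adjusted p values are Benjamini-Hochberg values over the 54232 probes tested. All 5 probes were well above background on all 12 arrays. On each array 74.1% to 90.3% of probes were well above background, and the sham miR-150 cKO arrays spanned this whole range. The file headers give 2 scan batches, which are taken here as 2 slides, since the labels give no slide. On slide 1 were all of MI miR-150 cKO together with replicate 3 of MI miR-150 fl/fl, and the other 8 arrays were on slide 2. Within miR-150 cKO, slide and surgery cannot be told apart. Of 10 cardiomyocyte markers, 5 had names and were well above background on all arrays.

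**Figure D1:**
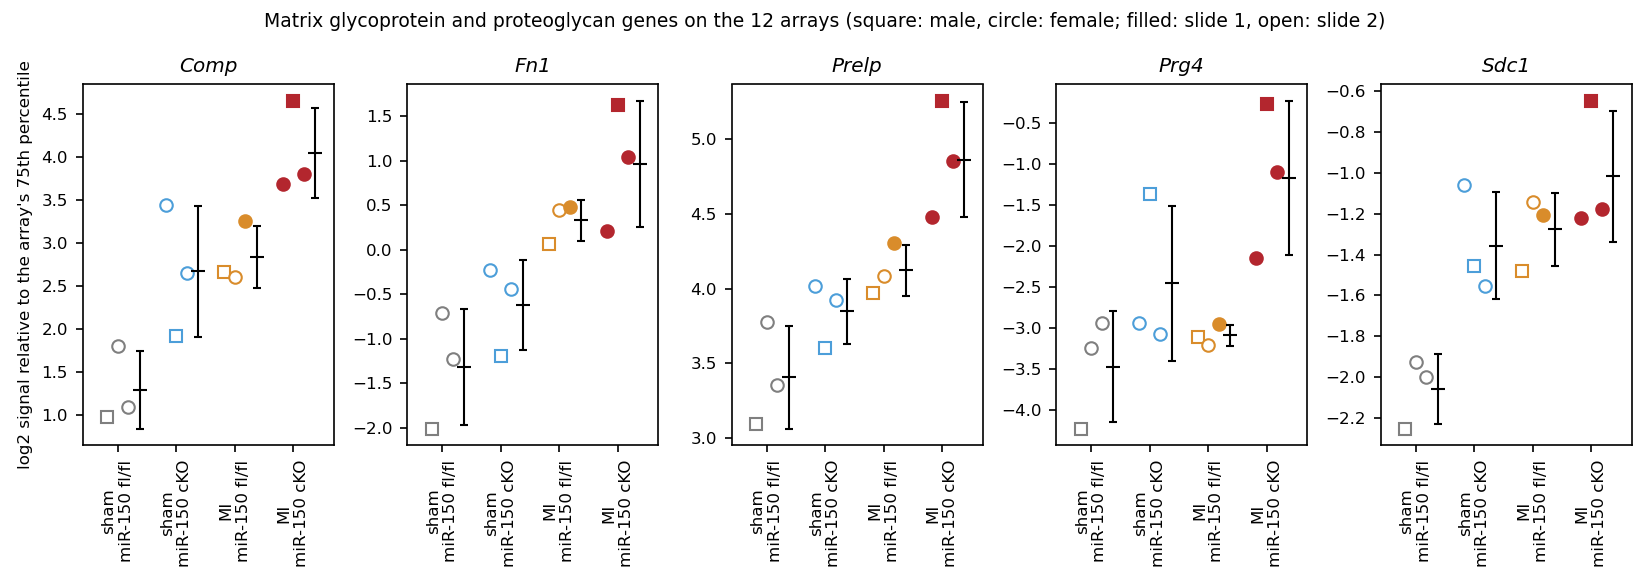
Each point is 1 mouse and gives the log2 signal of one gene relative to the 75th percentile of its array, with a separate vertical scale for each gene. Black bars are the group mean and SD of 3 mice. MI miR-150 cKO had the highest mean for all 5 genes, and its male mouse, replicate 2, was the highest of all 12 arrays for each of them.

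For 4 of the 5 genes the group means had the same order, sham miR-150 fl/fl lowest, then sham miR-150 cKO, then MI miR-150 fl/fl, with MI miR-150 cKO highest. Prg4 was the exception, with sham miR-150 cKO above MI miR-150 fl/fl. The middle groups of that order overlapped for Comp, Prelp, Prg4 and Sdc1 and were separate for Fn1. At the lower end, the sham groups overlapped for Fn1, Prelp and Prg4 and were separate for Comp and Sdc1. At the upper end, the MI groups overlapped for Fn1 and Sdc1 and were separate for Comp, Prelp and Prg4.

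Fn1 was lowest in sham miR-150 fl/fl, at -2.01, -0.72 and -1.23 in replicates 1 to 3. The sham miR-150 cKO values were -0.23, -1.20 and -0.44. After MI it was at 0.07, 0.45 and 0.48 in miR-150 fl/fl and at 0.21, 1.63 and 1.04 in miR-150 cKO. All 6 MI arrays were above all 6 sham arrays, while the genotypes overlapped both after sham and after MI. The transcript listed with its name is 1 of the 7 curated RefSeq transcripts of Fn1, and which of them the probe detects is not known.

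Prelp was at 3.09, 3.78 and 3.36 in sham miR-150 fl/fl and at 4.02, 3.60 and 3.92 in sham miR-150 cKO. After MI it was at 3.97, 4.09 and 4.31 in miR-150 fl/fl and at 4.48, 5.26 and 4.85 in miR-150 cKO. The MI miR-150 cKO arrays were all above the other 9.

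Comp was at 0.97, 1.81 and 1.09 in sham miR-150 fl/fl and at 3.44, 1.92 and 2.65 in sham miR-150 cKO. After MI it was at 2.66, 2.61 and 3.25 in miR-150 fl/fl and at 3.69, 4.65 and 3.80 in miR-150 cKO. The 3 MI miR-150 cKO arrays were again above the other 9, and the 3 sham miR-150 fl/fl arrays were below the other 9.

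Prg4 was at -4.22, -3.24 and -2.94 in sham miR-150 fl/fl and, nearly level, at -3.10, -3.21 and -2.95 in MI miR-150 fl/fl. The sham miR-150 cKO values were -2.93, -1.37 and -3.07, so that 1 mouse, the male, stood above its group. In MI miR-150 cKO it was at -2.15, -0.27 and -1.10. That single sham miR-150 cKO mouse was inside the range of the MI miR-150 cKO mice.

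Sdc1 was at -2.25, -1.93 and -1.999 in sham miR-150 fl/fl, below the other 9 arrays. The sham miR-150 cKO values were -1.06, -1.46 and -1.55. After MI it was at -1.48, -1.14 and -1.21 in miR-150 fl/fl and at -1.22, -0.65 and -1.18 in miR-150 cKO. These last 3 groups overlapped one another.

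Of the 5 genes, Prelp and Sdc1 matched an entry of the RefSeq promoter table for build GRCm38.p6. The 250 bases before the listed start of each are shown because these are the regulatory stretches at hand. Prelp is at chr1:133921402-133921651 on the minus strand and Sdc1 at chr12:8771146-8771395 on the plus strand, both written 5′ to 3′ along the gene, with motif matches in capitals.
Prelp: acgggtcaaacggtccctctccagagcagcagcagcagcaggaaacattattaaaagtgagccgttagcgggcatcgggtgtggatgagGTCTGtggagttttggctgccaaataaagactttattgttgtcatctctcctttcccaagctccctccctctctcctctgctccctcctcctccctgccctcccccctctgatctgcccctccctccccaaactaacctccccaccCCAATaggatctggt
Sdc1: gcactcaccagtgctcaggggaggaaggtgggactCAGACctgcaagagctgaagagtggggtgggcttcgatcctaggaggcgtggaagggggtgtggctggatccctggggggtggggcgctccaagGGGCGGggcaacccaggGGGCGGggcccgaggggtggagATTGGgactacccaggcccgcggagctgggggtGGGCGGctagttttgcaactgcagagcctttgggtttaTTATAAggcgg
A set of 6 motifs was searched on both strands. The GC box GGGCGG was found 3 times before Sdc1 and not before Prelp, and 32.7% of the 32851 windows of this length hold it. The TATA box letters TATAA were found before Sdc1 as a pair of overlapping matches, one on each strand, and not before Prelp, against 22.8% of all windows. CCAAT was found once before each gene, and 33.9% of windows hold it. CAGAC, the short letters bound by SMAD proteins, was found once before each gene, and 42.2% of windows hold it. The AP-1 letters TGANTCA and the TEAD letters GGAATG were in neither window, against 6.75% and 12.6% of all windows. The G and C content was 55.6% for Prelp and 66.0% for Sdc1, with a median of 52.4% over all windows.

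The effect of MI in miR-150 cKO mice was read from MI miR-150 cKO against sham miR-150 cKO, which named no gene. For Fn1 and Prelp it shares no array with the comparison that named them. For Comp and Prg4 it shares the MI miR-150 cKO arrays, and for Sdc1 the sham miR-150 cKO arrays, with a comparison that did. The differences of Comp, Prg4 and Sdc1, and the counts and median over the 5 genes, are thus not independent of the naming. Fn1, Comp, Prg4 and Prelp were past the limits and higher after MI, 4 of 5 genes, where 4.62% of all probes tested were past the limits and higher. The groups did not overlap for Fn1, Comp and Prelp, 3 of 5, where 15.4% of all probes were higher without overlap. The median difference was 1.28 over the 5 genes and 0.06 over all probes tested.

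Fn1 rose by 1.58 (SE 0.40, n = 3 against 3, adjusted p = 0.0717 by limma), a fold of 2.99. Prelp rose by 1.02 (SE 0.22, adjusted p = 0.0473 by limma), a fold of 2.03, and was the only one of the 5 genes with an adjusted p under 0.05, where 0.782% of all probes were higher at that limit. That share rests on single arrays, since 424 probes were higher at that limit with all arrays and 0 with MI miR-150 cKO replicate 2 or 3, or sham miR-150 cKO replicate 2 or 3, left out. It was also 0 with a replicate block, with the compared groups fitted alone and in the unpaired 2-tailed test. The Prelp adjusted p was between 0.029 and 0.823 over 23 alternatives. Among the arrays of this comparison, it was above 0.05 without MI miR-150 cKO replicate 2 (0.202) or 3 (0.141) and without sham miR-150 cKO replicate 2 (0.133) or 3 (0.139). Comp rose by 1.38 (SE 0.40, adjusted p = 0.0962 by limma), a fold of 2.60. Without sham miR-150 cKO replicate 1, its highest sham mouse, the Comp difference was 1.76 with a limma adjusted p of 0.0284, the lowest of a range up to 0.909. Prg4 was higher by 1.28 (SE 0.54, adjusted p = 0.213 by limma), a fold of 2.43 with overlapping groups. It was no longer past the limits without MI miR-150 cKO replicate 2 (0.83) or 3 (1.25) or without sham miR-150 cKO replicate 1 (1.04) or 3 (0.98). In the unpaired 2-tailed test Comp and Prg4 were not past the limits. Sdc1 differed by 0.34, with a 95% interval from -0.07 to 0.75, and was not past the limits.

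With slide as a block, a fit in which the slide difference rests on how replicate 3 of MI miR-150 fl/fl differs from its group, none of the 5 genes was past the limits in this comparison. The differences were then 1.36 for Fn1, 0.76 for Comp, 0.74 for Prelp and 1.08 for Prg4, all above 0. MI miR-150 fl/fl replicate 3, the array of its group on slide 1, was the highest of its group for Comp, Fn1, Prelp and Prg4.

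In miR-150 fl/fl hearts, MI against sham was the comparison that named Comp, Fn1, Prelp and Sdc1, so their passing there was fixed by the naming and nothing is read from it (0.887% of all probes were past the limits and higher). The differences were 1.65 for Fn1, 1.55 for Comp, 0.72 for Prelp and 0.78 for Sdc1. On slide 2 alone, with 2 MI and 3 sham arrays, they were 1.58, 1.34, 0.62 and 0.75 in the same order. These MI arrays were in row 2 of the slide and the sham arrays in row 1, so that row and surgery cannot be told apart there. Prg4, which this comparison did not name, differed by 0.38 (SE 0.54, 95% interval from -0.82 to 1.57, limma adjusted p = 0.9999) and was not past the limits. The MI miR-150 fl/fl arrays of this difference are shared with the comparison that named Prg4. With its lowest array, sham miR-150 fl/fl replicate 1, left out the Prg4 difference was -0.0008.

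**Figure D2:**
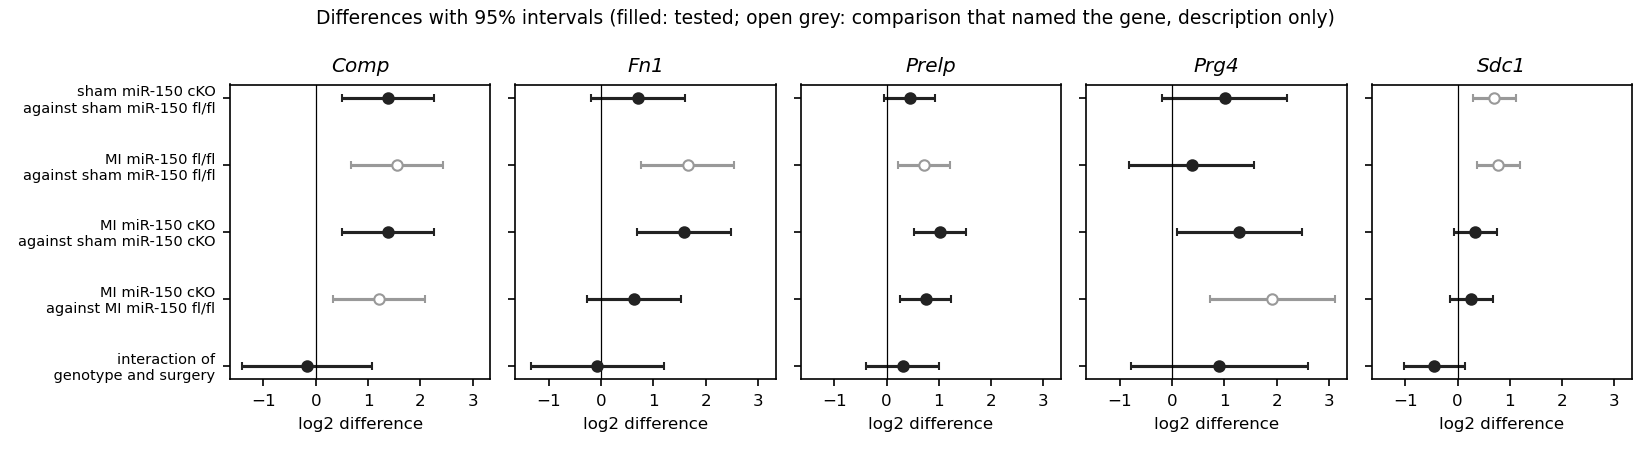
Horizontal position is the log2 difference of the group means, first group minus second, with its 95% interval from the limma fit of all 12 arrays. Filled points are comparisons that did not name the gene and open grey points are those that did. In the interaction row all 5 intervals include 0.

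The interaction of genotype and surgery is the MI difference in miR-150 cKO minus that in miR-150 fl/fl. It contains the differences that named the genes, so its values are not independent of the naming and are given for their intervals. By limma 0 of the 5 genes were past the limits, 0 passed after adjustment and 0 had an unadjusted p under 0.05, where 6.86% of all probes were past the limits in either direction, and nothing is read from this count. Fn1 had an interaction of -0.07 with a 95% interval from -1.34 to 1.20, and Comp one of -0.17 from -1.41 to 1.07. For Prelp the interaction was 0.30 from -0.39 to 0.998, and for Prg4 it was 0.90 from -0.79 to 2.60. Sdc1 had -0.44, with an interval from -1.02 to 0.14, and its value without MI miR-150 cKO replicate 2 was -0.63, past the limits. The intervals leave room for differences of 2-fold or more in Comp, Fn1, Prg4 and Sdc1.

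The effect of the deletion without infarction was read from sham miR-150 cKO against sham miR-150 fl/fl, with all 6 arrays on slide 2. Sham miR-150 cKO replicates 2 and 3 were in row 2 of that slide and the other arrays in row 1. Sdc1, at 0.70, was named by this comparison. Of the 4 genes it did not name, 1, Comp, was past the limits and higher, where 0.629% of all probes were. Comp rose by 1.38 (SE 0.40, limma adjusted p = 0.509), a fold of 2.60, with no overlap between the groups, where 4.97% of all probes were higher without overlap. The sham miR-150 fl/fl arrays are shared with the comparison that named Comp, Fn1 and Prelp, so these differences are not independent of the naming. In the unpaired 2-tailed test, which the study's methods use, Comp was not past the limits. Prg4 differed by 1.01 (95% interval from -0.19 to 2.21, limma adjusted p = 0.590) in the only comparison that shares no array with the one that named it, and was not past the limits. Under 1 of 23 alternatives, the replicate block, Prg4 was past them. Fn1 differed by 0.70 (from -0.20 to 1.60) and Prelp by 0.44 (from -0.05 to 0.93), neither past the limits. Leaving out sham miR-150 fl/fl replicate 2, the highest of its group for both, the differences were 1.002 and 0.62 and past the limits, and without sham miR-150 cKO replicate 2 the Fn1 difference was 0.99 and past them.

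After MI, miR-150 cKO against miR-150 fl/fl was the comparison that named Comp, at 1.21, and Prg4, at 1.91. Of the other 3 genes Prelp was past the limits. The count past the limits and higher was thus 1 of the 3 genes it did not name, beside 3.42% of all probes. The MI miR-150 fl/fl arrays are shared with the comparison that named Fn1, Prelp and Sdc1, so these differences are not independent of the naming. Prelp rose by 0.74 (SE 0.22, limma adjusted p = 0.142), a fold of 1.67, with no overlap between the groups, where 15.2% of all probes were higher without overlap. This call is close to the fold limit. The Prelp difference was 0.57 under quantile normalization and in the authors' log2 values, 0.56 after normexp background correction and 0.55 without MI miR-150 cKO replicate 2, all short of 1.5-fold, and 0.56 on slide 1 alone, with 3 arrays against 1. Fn1 differed by 0.63 (95% interval from -0.27 to 1.53) and Sdc1 by 0.26 (from -0.15 to 0.67), neither past the limits, and Fn1 was past them without MI miR-150 cKO replicate 1, at 1.002. On slide 1 alone the differences were 0.79 for Comp, 1.78 for Prg4, 0.48 for Fn1 and 0.19 for Sdc1. The study's qPCR did not bear out a higher Comp in this comparison and/or in MI miR-150 fl/fl against sham miR-150 fl/fl.

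**Figure D3:**
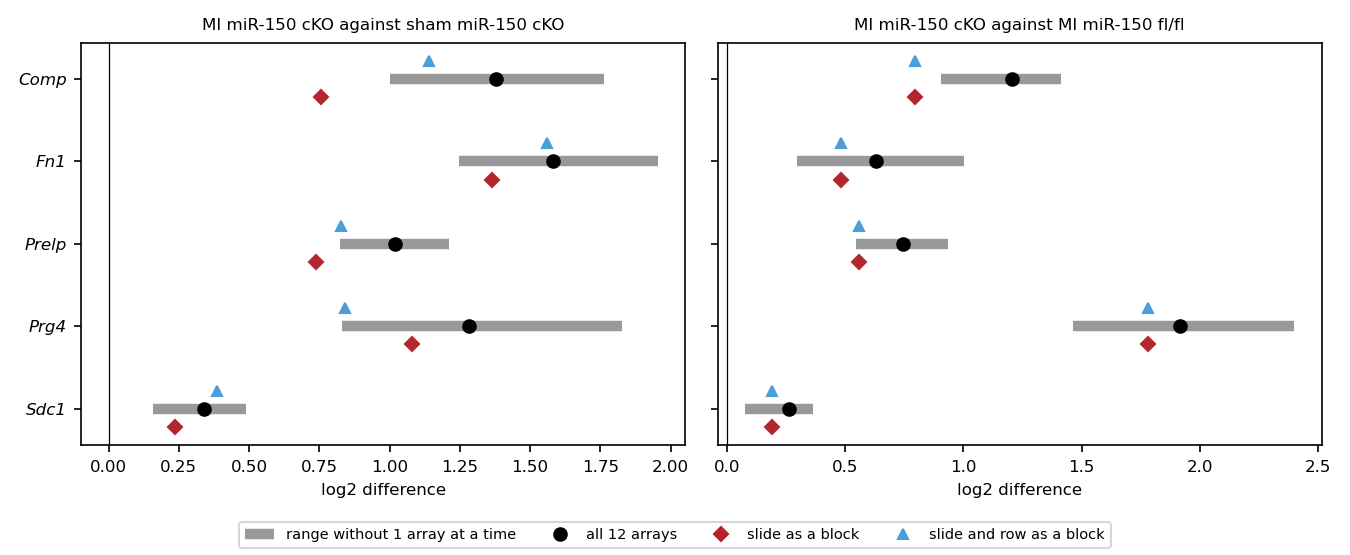
Horizontal position is the log2 difference in the comparison named above each panel, each panel with its own scale. Grey bars span the values with 1 array left out at a time, black circles use all 12 arrays, and diamonds and triangles are fits with slide, or slide and row of arrays, as a block. All values shown are above 0, and for Comp and Prelp in MI miR-150 cKO against sham miR-150 cKO the slide block lies below the grey bar.

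Apart from the group differences, Comp, Fn1, Prelp and Sdc1 went up and down together from mouse to mouse. After each gene's group means were subtracted, Pearson's r over the 12 arrays was 0.97 for Fn1 and Prelp, 0.86 for Comp and Prelp, 0.81 for Comp and Fn1, and 0.76 to 0.77 for Sdc1 with each of those 3. The median r of these 4 genes with the other 854 named genes, calculated the same way, was between 0.04 and 0.10. Prg4 stood apart, with r of 0.01 with Comp, 0.34 with Fn1, 0.37 with Prelp and 0.41 with Sdc1. These are descriptions over mice that share arrays, scaling and scan.

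The same mice were extreme for most genes. Sham miR-150 fl/fl replicate 1, a male, was lowest of its group for all 5 genes, and MI miR-150 cKO replicate 2, a male, was highest for all 5 while replicate 1 was lowest for all 5. Sham miR-150 cKO replicate 1 was highest of its group for the 4 genes other than Prg4, and replicate 2, the male, was lowest for Comp, Fn1 and Prelp and highest for Prg4. Males were thus at opposite ends in different groups.

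**Figure D4:**
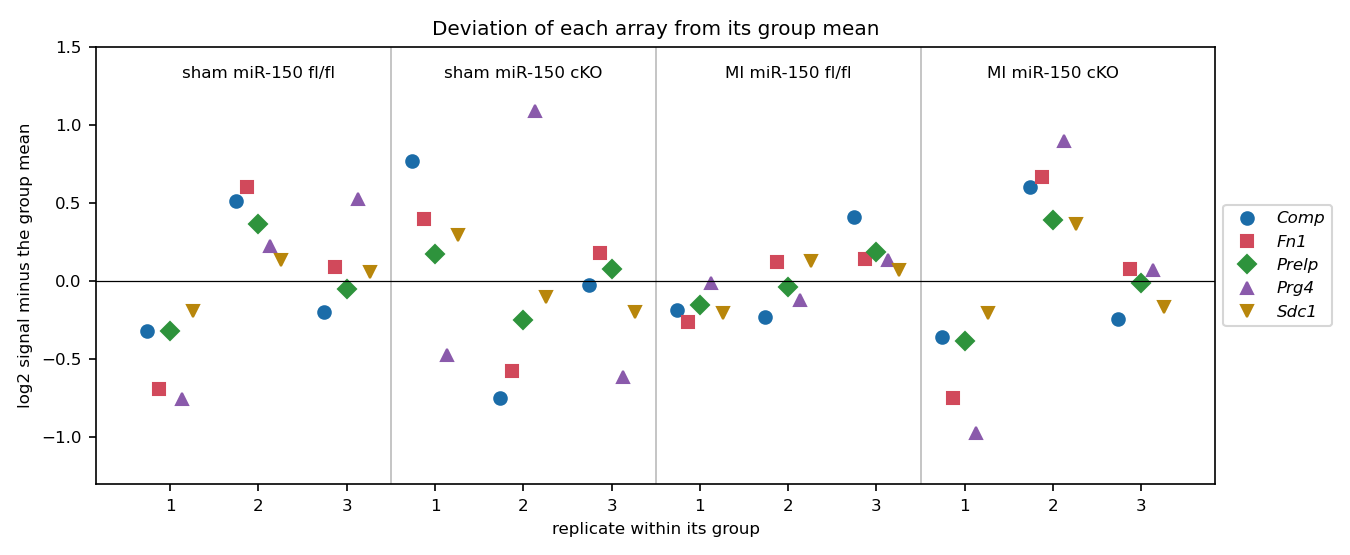
Each point is the log2 signal of one gene on one array minus the mean of its group of 3 arrays, with replicates along the horizontal axis. Comp, Fn1, Prelp and Sdc1 lie close together on most arrays, and Prg4 lies apart from them on sham miR-150 cKO replicates 1 and 2.

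Markers of fibroblasts varied with these genes within groups, and levels of their sum between groups depend on how the markers were named. Of 10 fibroblast markers, 6 had names (Col1a1, Col1a2, Col3a1, Postn, Dpt and Cthrc1), all of which also stand in the collagen or glycoprotein list. None was at 0, and 1 of them was not well above background on some sham miR-150 fl/fl array. The sum of their linear signals relative to the array percentile ranged from 16.1 to 33.6 in sham miR-150 fl/fl, from 42.8 to 54.8 in sham miR-150 cKO, from 63.0 to 68.7 for MI miR-150 fl/fl and, for MI miR-150 cKO, from 50.04 to 85.7. Its median was 64.5 in MI miR-150 fl/fl and 60.4 in MI miR-150 cKO. All 6 markers were named by MI miR-150 fl/fl against sham miR-150 fl/fl, so that rise of the sum was fixed by the naming. Col1a1, Col1a2, Postn and Cthrc1 were also named by sham miR-150 cKO against sham miR-150 fl/fl. Dpt was also named, as lower, by MI miR-150 cKO against MI miR-150 fl/fl. Differences of the sum between groups are thus not independent of the naming. Within groups, r of the log2 sum with each gene was 0.90 for Fn1, 0.86 for Prelp, 0.77 for Sdc1, 0.67 for Comp and 0.53 for Prg4. Their part in the results was not tested.

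Other cell types had lists too. Of 11 macrophage and other leukocyte markers 8 had names, with sums from 27.1 to 40.8 in sham miR-150 fl/fl, 45.6 to 66.1 in sham miR-150 cKO, 43.6 to 48.2 for MI miR-150 fl/fl and, for MI miR-150 cKO, 44.0 to 62.1. The 5 cardiomyocyte markers summed to 146 to 206 in sham miR-150 fl/fl, 132 to 172 in MI miR-150 fl/fl, 174 to 369 in sham miR-150 cKO and 428 to 492 in MI miR-150 cKO. Unlike the fibroblast and leukocyte sums, this sum was higher without overlap in MI miR-150 cKO than in sham miR-150 cKO. Of all single probes, 15.4% were higher without overlap in this comparison. Names of the markers in these lists also came only from matches to listed changed transcripts. Group differences of these sums, the cardiomyocyte sum included, are therefore not independent of the naming. Nothing is read from the lack of overlap. The 2 endothelial markers of 7 with names ranged from 12.2 to 21.8 over all arrays, and smooth muscle and pericyte markers had 0 of 6 named. Of 7 cartilage and tendon markers, Ucma and Lect1 had names, and their sum was lowest in MI miR-150 cKO, 0.77 to 0.85 against 1.02 to 1.52 on the other arrays. Both were named, as lower, by MI miR-150 cKO against MI miR-150 fl/fl, so a lower sum there was fixed by the naming. Nothing is read from it. The part of these cells in the results was not tested.

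The 3 named genes most like each of the 5 were found by Pearson's r of the log2 signal over the 12 arrays among 854 genes. This r includes the group differences for which the genes were named, and r within groups is given after it. Prelp was closest to Tgfb3 (0.97), a TGF-beta ligand, then Col1a1 (0.95), a chain of collagen I, and Col6a1 (0.95), a chain of collagen VI, with 0.89, 0.76 and 0.72 within groups. Sdc1 was closest to Eln (0.94), elastin, Adamts2 (0.94), a procollagen peptidase, and Wisp2 (0.94), a CCN family matrix protein, with 0.79, 0.87 and 0.70 within groups. Fn1 was closest to Clec11a (0.98), Anpep (0.97), an aminopeptidase of the cell surface, and Ltbp3 (0.95), which binds latent TGF-beta, with 0.95, 0.95 and 0.84 within groups. Comp was closest to Gpr176 (0.96), Tgfb3 (0.96) and Kcnma1 (0.95), a potassium channel subunit, with 0.84, 0.81 and 0.88 within groups. Prg4 was closest to Comtd1 (0.93), B4galnt1 (0.91) and Sval3 (0.90), with 0.78, 0.78 and 0.72 within groups. Among the 5 genes themselves, r over the 12 arrays was between 0.87 and 0.96 for pairs without Prg4 and between 0.64 and 0.76 for pairs with it.

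Other genes of the matrix were taken from lists of which few members had names, mostly because they passed the study's limits somewhere, so that their counts say nothing of the rest of each list. MI miR-150 cKO against sham miR-150 cKO named none of them, but it shares arrays with comparisons that did. Ctgf, Gpc4, Gpc1, Ids, Tln1, Mmp25, Gdf15, Inhbb and Col6a1 were named by MI miR-150 cKO against MI miR-150 fl/fl, with the same MI miR-150 cKO arrays. Adamts2, Col1a1 and Col1a2 were named by sham miR-150 cKO against sham miR-150 fl/fl, with the same sham miR-150 cKO arrays. Their differences are thus not independent of the naming. In MI miR-150 cKO against sham miR-150 cKO, 6 of 20 named matrix glycoproteins were past the limits and higher and 0 lower. Their median difference was 0.51, where 6.34% of all probes were past the limits in either direction. The largest were Eln (0.97), Cilp2 (0.81) and Ctgf (0.81), a CCN family growth factor. Of 6 named proteoglycans 3 were higher and 0 lower, with a median of 0.50. They were Bgn (0.99), biglycan, a relative of Prelp, and the glypicans Gpc4 (0.87) and Gpc1 (0.76), which like Sdc1 carry heparan sulfate at the cell surface. Gpc4 had a limma adjusted p of 0.0459. Like the other adjusted calls of this comparison below, it was lost with any of the 4 arrays named above for Prelp left out, since 0 probes then passed.

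Of 4 enzymes that build or break glycosaminoglycan chains, 1 was past the limits, Ids (0.76), a lysosomal sulfatase, and the median was 0.51. Of 5 matrix receptors and adhesion genes, Tln1 (0.98, limma adjusted p = 0.0395), talin, was past the limits, and the median was 0.05. Of 14 genes of crosslinking and turnover, Adamts2 (0.86) and Timp2 (0.73), an inhibitor of matrix metalloproteinases, were higher and Mmp25 (-1.02, limma adjusted p = 0.028) was lower, with a median of 0.42. Of 4 TGF-beta ligands and regulators, Gdf15 (1.01), Tgfb3 (0.76) and Inhbb (0.62) were higher, with a median of 0.69. Of 6 collagens, Col1a1 (1.27), Col6a1 (0.93, limma adjusted p = 0.0247) and Col1a2 (0.81) were higher, with a median of 0.85.

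**Figure D5:**
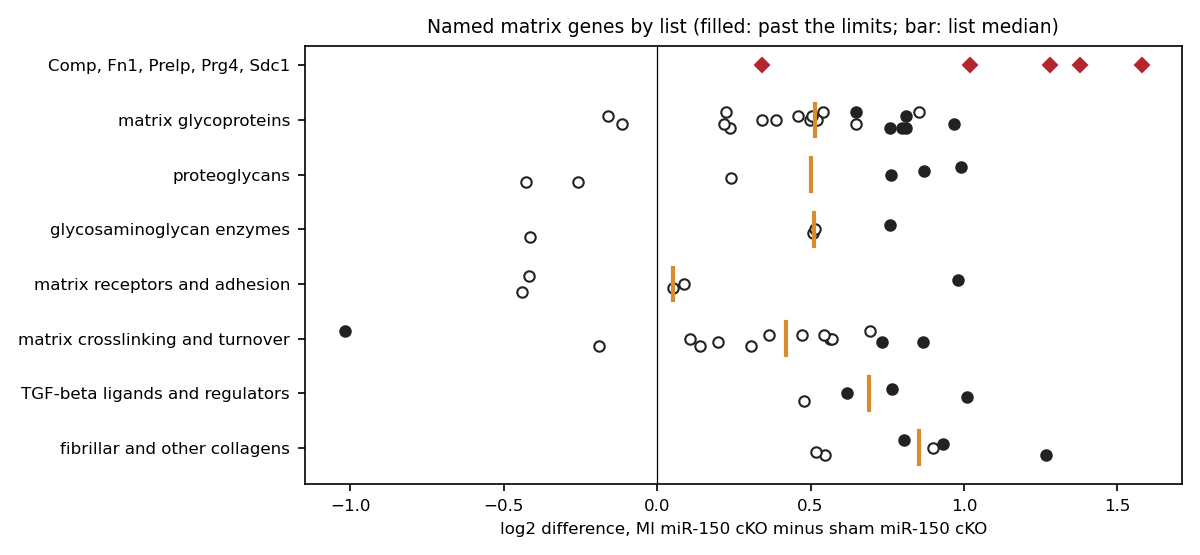
Horizontal position is the log2 difference of MI miR-150 cKO minus sham miR-150 cKO for each named gene of a list, filled where it was past the limits, and vertical bars are list medians. Red diamonds are Sdc1, Prelp, Prg4, Comp and Fn1 from left to right, 4 of which lie above 1.

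In sham miR-150 cKO against sham miR-150 fl/fl, which named 7 of the 20 matrix glycoproteins, 3 of the 13 it did not name were past the limits, all higher, with 2.76% of all probes past the limits. Over all 20, 8 were past the limits and higher and 2 were lower, both of the lower ones named by it. The median over the 20 was 0.50. The largest differences were those of Postn (2.63) and Cthrc1 (2.48), which it named, and Eln (1.04), which it did not. Of the proteoglycans 1 of 6, Bgn (0.60), was past the limits, with a median of -0.06. Of 4 TGF-beta genes, Gdf15 (0.80) was. In MI miR-150 cKO against MI miR-150 fl/fl, which named 5 of the 6 proteoglycans, Gpc4 (0.87), Cspg5 (0.74) and Gpc1 (0.70) were higher and Lect1 (-1.46) and Ucma (-0.59) were lower, where 4.75% of all probes were past the limits. Of 5 receptors and adhesion genes, of which it named 4, Tln1 (1.01) was higher and Dag1 (-0.64), dystroglycan, Itga7 (-0.62) and Cd44 (-0.62), the hyaluronan receptor, were lower. MI miR-150 fl/fl against sham miR-150 fl/fl named 11 of the 20 matrix glycoproteins and 2 of the 6 proteoglycans, Bgn (1.03) and Lect1 (0.76). Of the matrix glycoproteins and proteoglycans that it did not name 0 were past the limits, with 1.25% of all probes past them. Among the collagens, Col5a2 (1.11), which it did not name, was past the limits.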

How the data were processed

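Total RNA of 12 left ventricles was labelled with Cy3 and hybridized to 1-colour Agilent arrays with Arraystar probes. Linear spot intensity from Agilent Feature Extraction 11.0.1.1, as the authors deposited it, had its background subtracted, with no normalization between arrays. They also gave log2 values that they had normalized by a method not given in the sources used here. Of 62939 spots per array, 60930 probes were not controls and 60819 were used. Flagged spots, 0.0593% of spots, were left out and 0 were saturated. The log2 intensity of each probe was expressed relative to its array's 75th percentile. Probes well above background on at least 3 arrays (54232) entered 1 fit of 4 group means in limma 3.58.1 (R 4.3.3, data.table version 1.17.8), tested on simulated data beforehand. The residual degrees of freedom were 8, with a prior of 2.42. The number of arrays limits the precision, and the smallest two-sided p of an exact permutation test of 3 mice against 3 is 0.1. Labels do not say more about separate litters or days, so p-values measure the spread between these mice.

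Names came from matching fold and p of 963 entries of the study's lists to the log2 values within a relative tolerance of 2e-05, each to exactly 1 probe, which named 892 probes. The fold and p entries served as a key only. The 5 genes, the lists and the tests were chosen with earlier results of these data known. Genes named in the text are the 5, the 3 named genes with the highest r to each, and at most 3 list members past the limits per list and comparison by size of difference. Markers of the fibroblast and cartilage lists are named as lists. Exceptions, named after their values were seen, are Ucma, Cd44 and, after MI between genotypes, Gpc1. Slides were inferred from scan batches in the file headers. The headers give build mm9, and no probe coordinates are used. Alternatives were quantile normalization, normexp with an offset of 50, the authors' log2 values, no filter, a filter on all 12 arrays, sex as a covariate, a fit of only the groups compared, the methods' unpaired 2-tailed test, replicate, slide, and slide and row as blocks, and leaving out each array. Promoter sequences are from RefSeq. Plots used matplotlib 3.10.9 in Python 3.11.15.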

Additional observations from a re-analysis of the deposited data

How the results depend on the processing

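The number of the 5 genes past the limits in MI miR-150 fl/fl against sham miR-150 fl/fl was 4, all named by that comparison, so that its range of 3 to 4 under the 23 alternatives says nothing of stability. In sham miR-150 cKO against sham miR-150 fl/fl it was 2, 1 of them named by it, with 1 after normexp background correction and 1 in the unpaired 2-tailed test, and 1 to 4 with 1 array left out (1 without sham miR-150 cKO replicate 1, 4 without sham miR-150 fl/fl replicate 2). In MI miR-150 cKO against sham miR-150 cKO it was 4, with 2 in the unpaired 2-tailed test, 0 with slide as a block, 0 with slide and row as a block, and 3 to 4 with 1 array left out. In MI miR-150 cKO against MI miR-150 fl/fl it was 3, 2 of them named by it, with 0 under either slide block and 1 to 4 with 1 array left out (1 without MI miR-150 cKO replicate 2). In the interaction it was 0, with 1, Sdc1, with slide and row as a block, and 0 to 1 with 1 array left out. The cause of these changes was not tested.

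Differences that changed sign were all short of the limits. The Prg4 difference in MI miR-150 fl/fl against sham miR-150 fl/fl was -0.40 with slide and row as a block, and ranged from -0.0008 to 0.64 with 1 array left out. The interaction was 0.048 for Fn1 after normexp background correction and -0.055 for Prelp with slide and row as a block. With 1 array left out it ranged from -0.55 to 0.21 for Comp and from -0.41 to 0.30 for Fn1.

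Whether replicate numbers pair the mice cannot be told from these arrays. Correlations of deviations between same-numbered arrays ranged from -0.09 to 0.26. In MI miR-150 cKO against sham miR-150 cKO they were 0.20, 0.06 and 0.26, with -0.20 to -0.001 for arrays of different numbers. In MI miR-150 cKO against MI miR-150 fl/fl they were -0.09, -0.05 and -0.09, with 0.001 to 0.085 for arrays of different numbers. With a replicate block the counts were 3, 4, 4, 3 and 0 in the order sham miR-150 cKO against sham miR-150 fl/fl, MI miR-150 fl/fl against sham miR-150 fl/fl, MI miR-150 cKO against sham miR-150 cKO, MI miR-150 cKO against MI miR-150 fl/fl, and the interaction. Scaling moved the balance of calls over all probes. Under quantile normalization the share of calls that were higher was 37.0% in place of 22.8% in sham miR-150 cKO against sham miR-150 fl/fl, 55.4% in place of 72.8% in MI miR-150 cKO against sham miR-150 cKO, and 52.0% in place of 64.2% in the interaction.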
